A study of Mus musculus with 78 samples.

Results

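The heat shock chaperones described here are 10 mouse genes, taken by the Entrez identifiers of Hspa1a, Hspa1b, Hspa8, Hsp90aa1, Hsp90ab1, Hspa5, Hspa9, Hspd1, Hspe1 and Hsf1, out of 13604 genes listed in both the 4-cell and the 8-cell table of single blastomeres. All 10 are listed at both stages, where the tables hold 15218 and 15342 genes. They are 9 chaperones of the cytosol, the endoplasmic reticulum and the mitochondria, and the transcription factor Hsf1, which drives the heat-inducible ones. They were taken by name, with earlier results of these data known.

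Rainbow-seq reads the transcriptome of a single blastomere together with a fluorescent marker that tells which cell of the 2-cell embryo it came from. The labels list 78 blastomeres, 36 of them from 9 4-cell embryos and 31 from 4 8-cell embryos, with 11 more from a 5-cell and a 6-cell embryo. All embryos came from crosses of mice carrying the Brainbow2.1 construct with mice carrying CAG-cre/Esr1*, a tamoxifen-inducible Cre under a broadly active promoter. All were collected as 2-cell embryos 46 hours after the second hormone injection, kept for 2 hours with 4-hydroxytamoxifen and grown in KSOM medium at 37 °C. Every group shares these alleles and this treatment, and no untreated or heat-treated group is compared here. The zona was removed with acid and the blastomeres were parted with trypsin before lysis.

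There are 24 columns in the 4-cell and 26 columns in the 8-cell gene table. Apart from 5 8-cell columns that share the name NA, each is named by a running number. NA is also the study's mark for an undetermined lineage, but the 24 and 26 columns equal in number the blastomeres of resolved lineage. What NA stands for in a column name is not stated. No name points to a labelled blastomere, an embryo or lineage A or B, so none of the 50 columns was tied to one. Each stage is therefore 1 sample here, blastomeres are not replicates of it, and the stages and the lineages A and B could not be tested against each other. Medians and ranges over blastomeres are given, with 2-fold as the size that is counted. The denominator of the FPKM values (fragments per kilobase of gene, scaled to the sequencing depth) was estimated at 6870000 to 16900000 fragments in 4-cell and at 2340000 to 21700000 fragments in 8-cell blastomeres. The number of genes above FPKM 1 ran from 3009 to 8276 and from 3548 to 8078. All 7 blastomere markers were listed at both stages, and the medians of 7 and 6 were above FPKM 1. Of the cumulus cell markers, Amh and Has2 were listed at 0 or near 0 in every blastomere apart from 1 8-cell blastomere with Amh at 1.64. Amhr2 had medians of 36.6 and 41.5.

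HSP70 proteins bind exposed hydrophobic stretches of unfolded proteins and release them as ATP is hydrolysed and exchanged, with J-domain proteins and nucleotide exchange factors setting the pace. HSP90 proteins act later, on nearly folded clients such as kinases and steroid receptors, while HSP60 and its lid HSP10 fold proteins in a closed chamber within mitochondria. Cells hold constitutive and stress-inducible genes for the cytosolic HSP70 and HSP90 proteins. The mouse embryo makes inducible HSP70 around the onset of its own transcription at the 2-cell stage, and constitutive HSP70 is abundant throughout cleavage.

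Heat shock factor binds repeats of the letters GAA and TTC in alternating order. RefSeq promoter windows of GRCm38.p6, from 250 bases before to 50 after a gene's start, were at hand for 5 of the genes, Hspa1a, Hspa1b, Hspa5, Hspd1 and Hspe1. They were searched on both strands for GAANNTTC or TTCNNGAA, and for its extension to 3 and to 4 alternating units, each parted from the next by any 2 bases, whose matches also contain the shorter ones. The matches are shown because they set the inducible and the mitochondrial genes side by side. Capitals mark the units of the motif, and each line reads 5′ to 3′ on the gene's own strand.
Hspa1a, chr17:34972243-34972270, minus strand: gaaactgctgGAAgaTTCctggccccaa
Hspa1b, chr17:34959325-34959352, minus strand: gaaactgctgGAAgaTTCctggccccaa
Hspd1, chr1:55088054-55088081, minus strand: gggccTTCcgGAAggTTCtaGAAcggac
Hspe1, chr1:55088054-55088081, plus strand: gtccgTTCtaGAAccTTCcgGAAggccc
The stretches of Hspa1a and Hspa1b are letter for letter the same, and the motif in them lies 104 to 97 bases before either start. Those of Hspd1 and Hspe1 are one stretch of DNA read from both sides, with the motif 89 to 72 bases before the start of Hspe1 and 144 to 127 bases before the start of one of 2 Hspd1 windows. The other Hspd1 window, at the outer start where its gene span begins, held no such motif. The printed stretch lies inside the Hspd1 span, after that outer start. Hspd1 and Hspe1 are neighbours on opposite strands whose gene spans overlap by 96 bases. The motif with 4 units occurred in 8 of 32851 windows (0.0244%), that with 3 units in 0.603% and that with 2 units in 15.1%. The Hspa5 window held no such motif and 4 copies of CCAAT, a sequence found at least once in 37.4% of windows. A match of letters is not evidence of binding.

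The inducible HSP70 genes Hspa1a and Hspa1b code for nearly the same protein and lie 10120 bases apart on chromosome 17, at chr17:34969359-34972156 and chr17:34956429-34959238 on the minus strand, each as a single exon. Hspa1a was listed at 0 in 15 of 24 4-cell and in 18 of 26 8-cell blastomeres. In the rest it reached at most 11.4 FPKM at the 4-cell and 4.90 FPKM at the 8-cell stage. Its second highest values were 5.04 and 3.95 FPKM. The median was 0 at both stages.

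Where Hspa1a was found, it was mostly found with many fragments. The values were turned into estimated numbers of sequenced fragments with the denominator of each blastomere. Of the 9 4-cell blastomeres above 0, 1 had about 2 fragments and the other 8 had 30 to 474. The 8 8-cell blastomeres above 0 had 14 to 252. No blastomere lay between about 2 and 14 fragments, so that apart from the 1 with about 2, the gene was either listed at 0 or clearly above the floor of a count of 0. A value of 0 allows up to 3 fragments, which is 0.0685 to 0.137 FPKM in 4-cell and 0.0503 to 0.459 FPKM in 8-cell blastomeres. The reads carry no molecular identifiers, so these floors cover counting error alone.

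Hspa1b was rarer still. At the 4-cell stage it was above 0 in 1 of 24 blastomeres, with about 1 fragment, in the same blastomere that had the highest Hspa1a. In 8-cell blastomeres it was above 0 in 4 of 26, with about 172, 4, 2 and 1 fragments. The blastomere with 172 fragments of Hspa1b, an FPKM of 3.10, also held 218 of Hspa1a. Of these 5 blastomeres, the 8-cell blastomere with 4 fragments had Hspa1a at 0. Both genes are open to loss in the alignment, because only uniquely aligned reads were counted and 51.7% of the 100-base stretches of Hspa1a exons and 49.8% of those of Hspa1b recur exactly elsewhere in the genome.

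**Figure D1:**
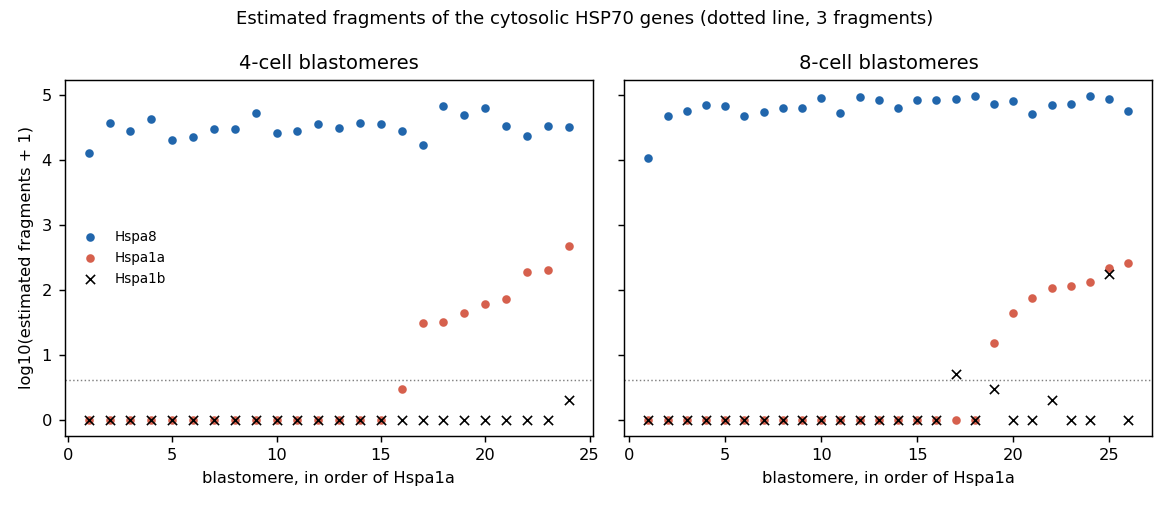
Estimated fragments of Hspa8 (blue), Hspa1a (red) and Hspa1b (crosses) in each 4-cell (left) and 8-cell (right) blastomere, as log10(fragments + 1), with blastomeres in order of Hspa1a and a dotted line at 3 fragments. Hspa1a is at 0 in 15 of 24 and 18 of 26 blastomeres and reaches 474 and 252 fragments, while Hspa8 is far above it in each.

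Hspa8, the constitutive HSP70 of the cytosol (HSC70), was the most abundant of the 10 genes. It lies at chr9:40801276-40805202 on the plus strand, with 9 exons. Its level was 619 to 2110 FPKM with a median of 1208 in 4-cell blastomeres. It was 1091 to 2591 FPKM with a median of 2020 in 8-cell blastomeres. By its median it stood 17th among all listed genes at the 4-cell stage and 2nd at the 8-cell stage. It was the highest of the 10 genes in 24 of 24 and in 25 of 26 blastomeres.

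The inducible genes made up a small part of the cytosolic HSP70 transcripts. Hspa1a and Hspa1b together held at most 1.13% of the summed FPKM of Hspa1a, Hspa1b and Hspa8 in any 4-cell blastomere and at most 0.338% in any 8-cell blastomere, with medians of 0. In the 8 4-cell blastomeres with more than 3 fragments of Hspa1a, Hspa8 was 87.8 to 2870 times as high, with a median of 680.5. In the 8 such 8-cell blastomeres the range was 298 to 6915 and the median 891. In blastomeres with Hspa1a at 0, Hspa8 was at least 5581-fold higher at the 4-cell stage and at least 4763-fold higher at the 8-cell stage, taking 3 fragments per blastomere for Hspa1a. The recurring stretches make these ratios uncertain on both sides, since 77.2% of the 100-base stretches of Hspa8 exons also recur elsewhere.

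Hspa8, Hsp90aa1 and Dnajb1 each had medians within 2-fold of each other in blastomeres with and without Hspa1a. At the 4-cell stage the median of Hspa8 was 1148 FPKM in the 9 blastomeres with Hspa1a and 1218 in the 15 without. The median of Hsp90aa1 was 422 against 487 FPKM, and that of Dnajb1, a J-domain partner of HSP70 that heat also induces, was 63.9 against 71.8 FPKM. In 8-cell blastomeres with and without Hspa1a, Hspa8 had medians of 2096 and 1766 FPKM, Hsp90aa1 of 772 and 605 FPKM and Dnajb1 of 66.2 and 49.05 FPKM. The number of expressed genes was also close, with medians of 7203 and 7119 at the 4-cell and 6805 and 6641 at the 8-cell stage.

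The cytosolic HSP90 pair was less lopsided. Hsp90aa1, the inducible alpha form (chr12:110691036-110696395, minus strand, 11 exons), was listed at 54.6 to 892 FPKM with a median of 471 in 4-cell blastomeres and at 387 to 1144 FPKM with a median of 646 in 8-cell blastomeres. Hsp90ab1, the constitutive beta form (chr17:45567778-45573261, minus strand, 11 exons), ran from 381 to 1221 FPKM with a median of 690, and from 408 to 1622 FPKM with a median of 1174. The beta form was the higher of both in 22 of 24 and in 25 of 26 blastomeres. The alpha form held 7.35% to 54.6% of their summed FPKM at the 4-cell stage, with a median of 40.4%, and 25.7% to 50.9% at the 8-cell stage, with a median of 36.6%.

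By exact recurrence, only the alpha form is open to loss of reads among these 2 genes. Nearly identical stretches were not counted. Of the 100-base stretches of Hsp90aa1 exons, 70.5% recur elsewhere in the genome, against none of those of Hsp90ab1. At the 4-cell stage 2 blastomeres had low Hsp90aa1, at 54.6 and 119 FPKM. No 8-cell blastomere was under 387.

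Hspa5 codes for BiP, the HSP70 of the endoplasmic reticulum and a sensor of unfolded proteins there (chr2:34772090-34776529, plus strand, 8 exons, none of its 100-base stretches recurring). It had the largest ratio of stage medians among the 10 genes. Its level was 0 to 574 FPKM with a median of 274 in 4-cell blastomeres, and 28.7 to 297 FPKM with a median of 72.4 in 8-cell blastomeres. All other 4-cell blastomeres were at 54.3 FPKM or more, so that the value of 0 stands alone.

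The ranges of Hspa5 overlapped, but 25 of 26 8-cell blastomeres lay below the 4-cell median and 9 of 24 4-cell blastomeres lay above the highest 8-cell blastomere. The ratio of the medians was 3.75-fold, a log2 difference of -1.91 with 1 added to each median. The 2 tables were deposited apart, and whether they were normalized together is not stated. A ratio within a blastomere does not rest on that. Hspa5 over Hspa8 had a median log2 ratio of -2.02 at the 4-cell stage, where Hspa8 was 4.06 times as high, and of -4.62 at the 8-cell stage, where Hspa8 was 24.6 times as high. The change of this ratio draws on both genes, since Hspa8 had a log2 difference of 0.74 between the stages. Of the 100-base stretches of Hspa8 exons, 77.2% recur elsewhere.

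**Figure D2:**
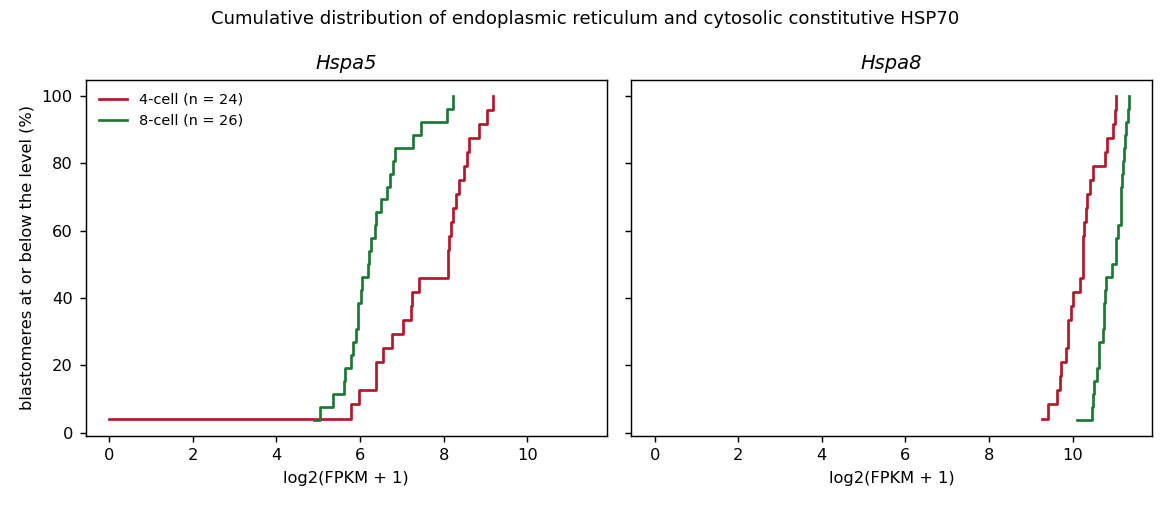
Share of blastomeres (%) at or below each level of Hspa5 (left) and Hspa8 (right), in log2(FPKM + 1), for 24 4-cell (red) and 26 8-cell (green) blastomeres. The 8-cell curve lies to the left of the 4-cell curve for Hspa5 apart from the 4-cell blastomere at 0, with medians of 72.4 and 274 FPKM, and to the right for Hspa8, with medians of 2020 and 1208 FPKM.

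The mitochondrial chaperones had lower medians than Hspa8 and the HSP90 genes, and each had its higher median in 8-cell blastomeres. Hspa9, or mortalin, pulls proteins into the matrix. Its level was 92.9 to 453 FPKM with a median of 167 in 4-cell blastomeres and 71.6 to 425 FPKM with a median of 224 in 8-cell blastomeres. Of the 8-cell blastomeres, 15 lay above the 4-cell median and 11 below, so this was the least separated of the chaperones with a median above 0.

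Hspd1 (HSP60; chr1:55077833-55088243, minus strand, 13 exons) ran from 0.134 to 204 FPKM with a median of 117 at the 4-cell stage, and from 8.83 to 416 FPKM with a median of 172 at the 8-cell stage. Hspe1 (HSP10; chr1:55088148-55091317, plus strand, 4 exons) ran from 2.75 to 251 FPKM with a median of 66.2, and from 19.5 to 260 FPKM with a median of 106. Hspd1 was above Hspe1 in 18 of 24 and 22 of 26 blastomeres. Their log2 ratio, Hspe1 over Hspd1, had medians of -0.72 and -0.52.

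The levels of these 2 genes, which share the stretch of DNA printed above, had a weak rank correlation across blastomeres, which share library depth. Spearman's rho was 0.30 over 24 4-cell and 0.32 over 26 8-cell blastomeres. In the 4-cell blastomere with Hspd1 at 0.134 FPKM, Hspe1 stood at 53.4 FPKM. In the one with Hspe1 at 2.75 FPKM, Hspd1 stood at 122 FPKM. Of Hspd1, 24.5% of the 100-base exon stretches recur elsewhere, against 0.787% for Hspe1.

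Hsf1, the heat shock transcription factor (chr15:76477362-76501155, plus strand, 13 exons), was the lowest gene with a median above 0. It ran from 0 to 143 FPKM with a median of 25.4 at the 4-cell stage and from 0 to 33.4 FPKM with a median of 14.9 at the 8-cell stage. It was listed at 0 in 1 of 24 and in 5 of 26 blastomeres. Of the 8-cell blastomeres, 22 lay below the 4-cell median, and 8 of 24 4-cell blastomeres lay above the highest 8-cell value.

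**Figure D3:**
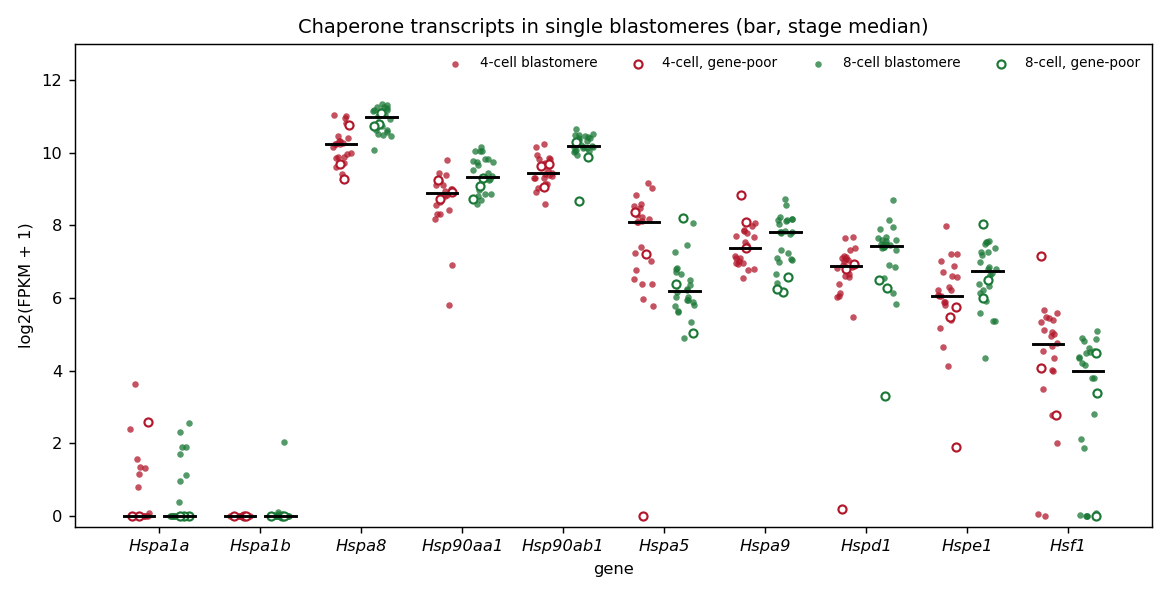
Level of each of the 10 genes, as log2(FPKM + 1), in 24 4-cell (red) and 26 8-cell (green) blastomeres, with the stage median as a black bar and blastomeres under 5000 expressed genes as open circles. Hspa5 and Hsf1 have the lower median at the 8-cell stage, the other 6 genes with a median above 0 have the higher one, and Hspa1a and Hspa1b have medians of 0.

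Between the stages, 8 of the 10 genes had a median above FPKM 1, in each case at both stages, and were compared. By their medians, 6 were higher and 2 lower at the 8-cell stage. None was at least 2-fold higher, against 9.97% of all 7131 genes compared, and 1, Hspa5, was at least 2-fold lower, against 18.7%. In either direction the background was 28.6%. Among 1938 genes with a median above 50 FPKM at either stage, which 7 of the 8 were and Hsf1 was not, these shares were 3.51% and 5.37%. A count of 1 lower gene, among 8 or among the 7 abundant ones, is too small to place the chaperones above or below either share. Hspa5 stayed the 1 gene past 2-fold without the gene-poor blastomeres described further on, at -1.93, and without the 5 8-cell columns named NA, at -1.84.

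The 6 higher genes differed by less than the threshold. The log2 difference of Hspa8 was 0.74 and that of Hsp90ab1 0.76. For either gene 25 of 26 8-cell blastomeres lay above the 4-cell median, and 12 lay above the highest 4-cell blastomere. The differences were 0.46 for Hsp90aa1, 0.42 for Hspa9, 0.56 for Hspd1 and 0.67 for Hspe1. Hsf1 stood at -0.73. The median over the 8 genes was 0.51, while over all 7131 genes compared it was -0.11. Scaling the blastomeres to one sum, or by median ratios to a common reference, left the directions of the 8 differences as they were, with Hspa5 the 1 gene past 2-fold.

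The order of the levels was steady at its top and loose in its middle. From the highest, the 4-cell medians ran Hspa8, Hsp90ab1, Hsp90aa1, Hspa5, Hspa9, Hspd1, Hspe1 and Hsf1. Within a blastomere, Hspa8 was above Hsp90ab1 in 24 of 24, while Hspa5 was above Hspa9 in 16 of 24 and Hspe1 above Hsf1 in 18 of 24. In the 8-cell order Hspa5 came after Hspe1, which was above it in 18 of 26 blastomeres. Hspa9 and Hspd1 were in the order of their medians in 18 of 26.

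The partners of these chaperones were read from 9 lists of related genes, with the same measure. Of 18 other HSP70 proteins and exchange factors, 12 had a median above FPKM 1 at a stage, 1 was at least 2-fold higher and 2 were at least 2-fold lower at the 8-cell stage, near the 9.97% and 18.7% of all genes, with a list median of 0.20. The most abundant were Hspbp1, an exchange factor, with medians of 128 and 176 FPKM, Hspa4, an HSP110 relative, with 63.9 and 87.1, and Grpel1, the exchange factor of mortalin, with 60.9 and 69.9. Bag6, which guards membrane proteins on their way to the endoplasmic reticulum, had medians of 4.59 and 15.1 FPKM, a log2 difference of 1.53. Bag4 had medians of 2.44 and 0 FPKM and Hspa2, a testis-rich HSP70, of 1.11 and 0 FPKM.

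Of the 14 other HSP90 proteins and co-chaperones, all 14 were compared, none was 2-fold higher and 3 were 2-fold lower, near the 18.7% of all genes. Stip1, the adaptor that hands clients from HSP70 to HSP90, was close to Hspa8 in abundance, at 691 to 2096 FPKM with a median of 1330 in 4-cell and 522 to 1996 FPKM with a median of 1217 in 8-cell blastomeres. Ppid and Fkbp4, immunophilins of the HSP90 complex, had medians of 227 and 312 FPKM and of 237 and 296 FPKM. The 3 lower genes were scarce. Tomm34 had medians of 18.7 and 6.26 FPKM, Fkbp5 of 2.10 and 0.0289 and Unc45a of 1.72 and 0.175.

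J-domain proteins were listed for 18 of 20 genes and compared for 16, none being 2-fold higher and 3 being 2-fold lower. Dnajb9, also called ERdj4 and a partner of BiP, had the highest median over all 50 blastomeres and the highest at the 4-cell but not at the 8-cell stage, at 187 to 943 FPKM with a median of 392 in 4-cell and 49.8 to 418 FPKM with a median of 169 in 8-cell blastomeres. Dnajc3, a BiP partner of the endoplasmic reticulum too, had medians of 30.6 and 14.6 FPKM. Dnajb14, anchored in the membrane of the reticulum, had medians of 49.4 and 16.7 FPKM. The cytosolic Dnajb6 and the ribosome-associated Dnajc2 had medians of 158 and 203 FPKM and of 93.0 and 179 FPKM. The share of 3 lower among 16 is close to the 18.7% of all genes. Other J-domain genes of the endoplasmic reticulum were within 2-fold, with medians of 47.1 and 41.9 FPKM for Dnajb11, 19.9 and 27.2 FPKM for Dnajb12 and 1.61 and 0.985 FPKM for Dnajc10.

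The other endoplasmic reticulum genes had ratios on both sides of 1. Of 18 folding and stress genes 14 were compared, none was 2-fold higher and 2 were 2-fold lower, against 18.7% of all genes, with a list median of -0.38. Ddit3, a transcription factor of the unfolded protein response (CHOP), had medians of 10.5 and 0 FPKM and was above 1 in 20 of 24 4-cell and 6 of 26 8-cell blastomeres. Pdia6, a disulfide isomerase, had medians of 20.2 and 1.46 FPKM. The abundant isomerases Pdia3 and P4hb had medians of 350.0 and 213.5 FPKM and of 180.5 and 110.1 FPKM, which is under 2-fold. Atf4, a transcription factor of the stress response, had medians of 55.9 and 71.5 FPKM. Canx, the lectin chaperone calnexin, was higher at the 8-cell stage by its median, at 37.5 and 71.8 FPKM. Hsp90b1, the HSP90 of the endoplasmic reticulum, had medians of 16.9 and 9.66 FPKM.

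Spearman's rho of Hspa5 was computed with 15 endoplasmic reticulum genes of these lists. Over 24 4-cell blastomeres it ran from -0.29 with Ddit3 to 0.73 with P4hb, with a median of 0.35. It was 0.72 with Pdia3, and close to 0 for others, such as 0.07 with Pdia6 and 0.08 with Dnajc3. Over 26 8-cell blastomeres it ran from -0.21 with Dnajc3 to 0.53 with Manf, with a median of 0.09, and was 0.20 with P4hb and 0.24 with Pdia3. The values of a blastomere share its library and its embryo, which is unknown here.

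The remaining lists stand beside 28.6% of all genes past 2-fold in either direction, and beside 3.51% higher and 5.37% lower among the abundant ones. All 14 chaperonin and prefoldin genes were within 2-fold, among them Cct4 with medians of 536.5 and 682.1 FPKM, Cct5 with 471 and 567, and Cct8 with 426 and 493. All 9 mitochondrial quality control genes were too, such as Clpx with 386.5 and 381.5 FPKM, Phb2 with 242.5 and 311.6 and Clpp with 174 and 142. The small heat shock proteins were listed for 2 of 10 genes, and Hspb1 had medians of 50.1 and 45.5 FPKM and Hspb11 of 9.89 and 9.50 FPKM. Of 5 heat shock factors and regulators 3 were compared, 1 of them 2-fold higher and 1 2-fold lower. Hsf2, a heat shock factor active in development, had medians of 14.9 and 31.4 FPKM, a log2 difference of 1.03 against the -0.73 of Hsf1. Hsf2bp, a partner of HSF2, had medians of 4.52 and 0 FPKM and Hsbp1, a small protein that binds HSF1, of 50.9 and 66.7 FPKM.

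Immediate early genes, which respond to handling and dissociation of cells within minutes, were listed for 11 of 16 genes at both stages. Fos, Fosb, Egr1, Atf3 and Gadd45a were not listed in both tables. Of the 5 compared, 1 was 2-fold higher and 3 were 2-fold lower at the 8-cell stage, against 9.97% and 18.7% of all genes. Socs3 had medians of 31.8 and 77.2 FPKM, Myc of 32.4 and 7.34, Gadd45b of 9.50 and 0 and Jund of 1.44 and 0.00798. Ier2 had medians of 18.5 and 18.9 FPKM. The part of dissociation in the chaperone levels was not tested.

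**Figure D4:**
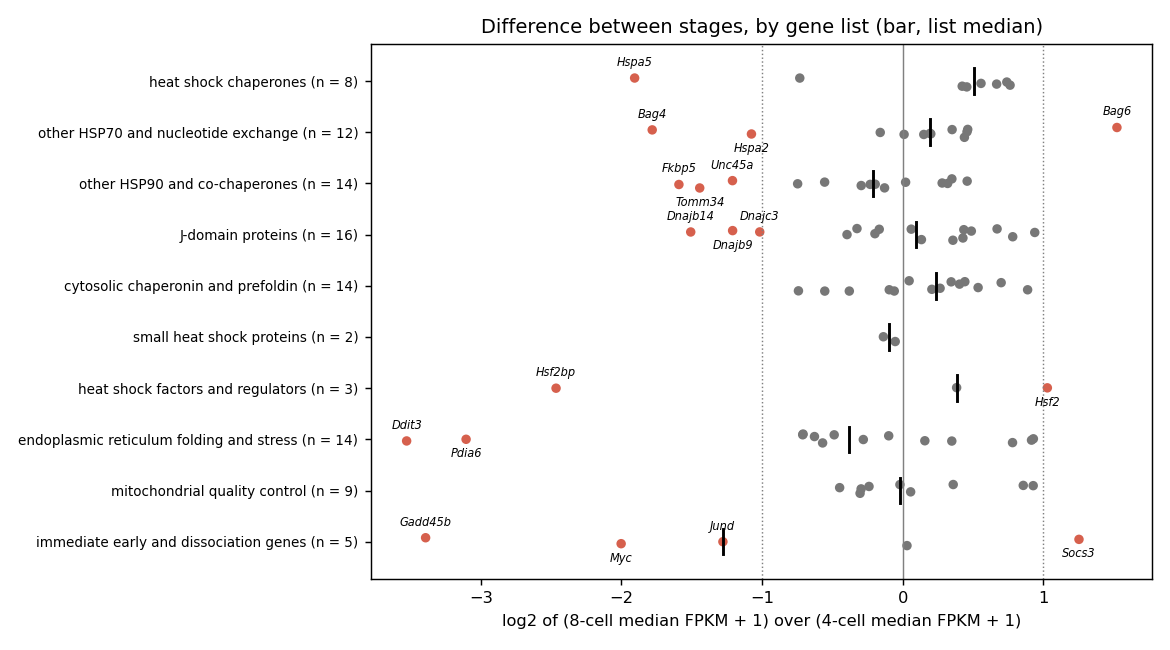
Log2 ratio of the 8-cell median over the 4-cell median, with 1 FPKM added to each, for the 8 compared chaperone genes and the genes of 9 related lists that had a median above FPKM 1 at a stage; bars are list medians, dotted lines mark 2-fold and red points lie past it. The chaperone genes have a median of 0.51 with Hspa5 at -1.91, and the chaperonin, mitochondrial and small heat shock lists have no gene past 2-fold.

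The spread between blastomeres was narrow for Hsp90ab1 and Hspa8. As the SD of log2(FPKM + 1), Hsp90ab1 had 0.40 in 4-cell and 0.37 in 8-cell blastomeres, and Hspa8 0.49 and 0.33. Of the genes with a mean above 10 FPKM, 97.9% and 97.0% had a larger SD than Hsp90ab1, and 95.6% and 98.4% had a larger SD than Hspa8. Abundant genes vary less by this measure. Those with a median above 100 FPKM had median SDs of 0.74 and 0.54, still above both genes. The place of both among such genes was not computed. The highest blastomere was 3.20 and 3.98 times the lowest for Hsp90ab1, and 3.41 and 2.38 times for Hspa8.

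The other genes varied more. Hsp90aa1 had an SD of 0.84 and 0.47, Hspa9 of 0.53 and 0.72, Hspe1 of 1.21 and 0.85 and Hspd1 of 1.45 and 1.02. Hspa5 had 1.85 and 0.81. Hsf1, with the lowest median of the 8, had 1.70 and 1.99.

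Several of these SDs were smaller without a single blastomere. Without its lowest blastomere, the one at 0, Hspa5 had an SD of 1.01 over 23 4-cell blastomeres. Hspd1 had 0.53 in 4-cell and 0.66 in 8-cell blastomeres without its lowest, at 0.134 and 8.83 FPKM. Hspe1 had 0.86 without its lowest 4-cell blastomere, and Hsp90ab1 0.20 without its lowest 8-cell blastomere.

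The median SD of the 8 genes with a mean above 10 FPKM was 1.02 and 0.77, against 1.57 over 4758 and 1.46 over 4660 such genes. Abundance moves with this measure, and 60.2% and 51.8% of those background genes were listed at 0 in at least 1 blastomere. Against the 968 and 942 genes with a median above 100 FPKM, which had median SDs of 0.74 and 0.54, the 6 chaperones so abundant at a stage had 0.68 and 0.60, and 3 of the 6 were below that background median each time. These are not the same 6, since Hspa5 is among them at the 4-cell stage alone and Hspe1 at the 8-cell stage alone.

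Hspa8 ran with each HSP90 gene across blastomeres, while the HSP90 genes did so with each other in 8-cell blastomeres alone by these values, a difference that was not tested. Spearman's rho of Hspa8 with Hsp90aa1 was 0.63 over 24 4-cell and 0.77 over 26 8-cell blastomeres, and with Hsp90ab1 0.51 and 0.76. Between Hsp90aa1 and Hsp90ab1 it was 0.13 and 0.63. Hspa8 and Hspa5 had -0.42 at the 4-cell stage. Hsp90aa1 and Hsf1 had -0.64 over 24 4-cell and 0.29 over 26 8-cell blastomeres, so that sign differed between stages. The number of expressed genes had a rho over 4-cell blastomeres from -0.43 for Hspa9 to 0.58 for Hspe1, with a median of 0.16 over genes with a mean above 10 FPKM. Over 8-cell blastomeres it ran from -0.21 for Hspa5 to 0.69 for Hsp90aa1, with a median of 0.09 over such genes. It was 0.57 for Hspa9, 0.56 for Hsp90ab1 and 0.11 for Hspe1, so that the sign for Hspa9 differed between stages.

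For each gene the most similar patterns were sought over all 50 blastomeres among 4151 genes above FPKM 1 in at least 40 of them, a measure that includes the difference between stages. Hspa8 was closest to Eef1a1, a translation elongation factor, with a rho of 0.91, and to Rpl4, a ribosomal protein, with 0.88. Hspa8 was in turn the closest gene to Hsp90ab1, with 0.82, and to Hsp90aa1, with 0.76. For the others the highest rho was 0.74 for Hspe1 with Rfk, 0.70 for Hspa5 with Atp1b3, 0.65 for Hspa9 with Kif23, 0.64 for Hspd1 with Arpc1b and 0.59 for Hsf1 with Sapcd2. Hspa1a and Hspa1b reached 0.45 with Ndufs1 and 0.50 with Herc4, and rest on few blastomeres above 0. The second closest were Snx5 for Hsp90aa1, Arih2 for Hsp90ab1, Spin1 for Hspa5, Ftsj3 for Hspa9, Sin3b for Hspd1, Ndufs5-ps for Hspe1, Epcam for Hsf1, Rbsn for Hspa1a and Msmo1 for Hspa1b.

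At each stage 3 blastomeres had fewer than 5000 genes above FPKM 1 and are called gene-poor. They had 3009, 3699 and 4939 genes at the 4-cell and 3548, 4263 and 4963 at the 8-cell stage. The blastomeres just outside the threshold had 5336 and 5106. The gene-poor 4-cell libraries had denominators of 9660000, 13300000 and 9870000 fragments, within the range of the others, and those of the 8-cell libraries were 2340000, 12600000 and 15300000 fragments, the first being the lowest of its stage. That estimate is under the number of uniquely mapped read pairs below which the study set a blastomere aside. The denominators are not the study's counts of such pairs, so the 2 are not directly comparable. Besides the blastomere set aside, the study lists an 8-cell blastomere of resolved lineage under that number, and no column was tied to either. Without the shallowest 8-cell library the difference of Hspa5 between the stages was -1.92. The split follows the libraries and is no group of the study.

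The gene-poor blastomeres were chosen for their low number of genes above FPKM 1, so that many scarce genes are lower in them follows from the choice, and abundant genes are the closer background. At the 4-cell stage 0 of the 8 genes were 2-fold lower by the ratio of medians, against 61.3% of all 7157 genes compared, and 0 were 2-fold higher, against 10.1% (71.4% in either direction). Among genes with a median above 50 FPKM, where 7 of the 8 belong, 34.3% were lower and 12.7% higher. The chaperones' median log2 ratio was -0.32 and that of all genes compared -1.61. For 8-cell blastomeres 2 of 8 were 2-fold lower, against 50.2% of 6609 genes, and 0 were higher, against 13.4% (63.6% in either direction). Of the abundant genes there, 14.5% were lower and 20.5% higher, and 2 lower among the 7 abundant chaperones is not below that share. The medians were -0.35 and -1.01.

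The medians of 3 libraries do not settle these counts. Without the 4-cell blastomere with 3009 genes 2 of the 8 genes were past 2-fold, Hspe1 and Hsf1. Without that with 3699 genes 3 were, Hspa5, Hspd1 and Hsf1, and without that with 4939 genes 3 were, Hspa9, Hspe1 and Hsf1. The log2 ratio of Hsf1 was -1.20, 1.57 and 1.48 in turn. Without the 8-cell blastomere with 4963 genes 4 were past 2-fold, without that with 4263 genes 3 and without that with 3548 genes 2, with Hspa9 and Hspd1 among them each time. With 6000 genes as the limit, which 7 8-cell blastomeres were under, Hspd1 stood at -0.97 and the 2 genes past 2-fold were Hspa9, at -1.26, and Hsf1, at -4.31.

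The cytosolic chaperones had medians within 2-fold of the others. Hsp90aa1 stood at 487, 422 and 609 FPKM in the 3 gene-poor 4-cell blastomeres, in order of rising gene number, beside a median of 454 in the others. In the 3 gene-poor 8-cell blastomeres it stood at 538, 633 and 423 FPKM beside 692. All 6 of these values were inside the range of the other blastomeres.

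Hspa8 was at 619, 834 and 1740 FPKM beside 1208, and at 2185, 1773 and 1723 FPKM beside 2081. The 619 FPKM in the blastomere with 3009 genes was below the lowest of the others, 679.7. That library and the one with 3699 genes also had summed FPKM over listed genes of 266873 and 309126, below the 377758 to 494910 of the others. With each library scaled to one sum, the 4-cell log2 ratio of Hspa8 was 0.04 in place of -0.53, that of Hspa5 -0.22 in place of -0.89 and that of Hspa9 1.30 in place of 0.71. Hsp90ab1 was at 538, 793 and 832 FPKM beside 688, and at 1253, 937 and 408 FPKM beside 1191. The last 2 of these lay below the other 8-cell blastomeres, which began at 982.

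With the limit of 5000 genes, the 2 genes past 2-fold at the 8-cell stage were Hspa9 and Hspd1. Hspa9 stood at 71.6, 75.5 and 95.5 FPKM beside 85.0 to 425 with a median of 227 in the other 23, a log2 ratio of -1.57. Hspd1 stood at 76.0, 8.83 and 89.9 FPKM beside 55.7 to 416 with a median of 175, a log2 ratio of -1.19. All 3 gene-poor blastomeres were below the median of the others for both. The mitochondrial Hspe1 stood at 62.6, 89.3 and 260.1 FPKM beside a median of 110.2, a log2 ratio of -0.30. Of the 9 mitochondrial quality control genes 1 was 2-fold higher and 2 were 2-fold lower. Among all genes compared these shares were 13.4% and 50.2%. Among the abundant genes, to which not all 9 belong, they were 20.5% and 14.5%. At the 4-cell stage Hspa9 went the other way, at 453, 271 and 164 FPKM beside 92.9 to 265 with a median of 165, so that 2 of the 3 were above every other blastomere.

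Single values in these libraries lay outside the range of the others. The 4-cell blastomere with 3009 genes had the highest Hsf1, at 143 FPKM beside at most 50.1 elsewhere, the highest Hspa9 and the lowest Hspd1, at 0.134 FPKM. The one with 3699 genes had the lowest Hspe1, at 2.75 FPKM. The one with 4939 genes had Hspa5 at 0, which allows up to 0.116 FPKM, while all other 4-cell blastomeres were at 54.3 or more.

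The 8-cell libraries had such values as well. The 8-cell blastomere with 3548 genes had the highest Hspa5, at 297 FPKM, and the lowest Hspa9, at 71.6 FPKM. The one with 4263 genes had the lowest Hspd1, and the one with 4963 genes had the lowest Hsp90ab1, at 408 FPKM, and the highest Hspe1, at 260.1 FPKM. Each of the gene-poor blastomeres held 1 to 4 of the 10 genes outside the range of the others of its stage. Of all genes with a stage median above 50 FPKM, 388 to 1014 of 1754 (22.1% to 57.8%) were outside it in a gene-poor 4-cell blastomere and 482 to 677 of 1694 in an 8-cell one, so such values are common in these libraries. Inducible HSP70 did not mark them, with Hspa1a above 0 in 1 of the 6, at 5.04 FPKM in the blastomere with 3699 genes.

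**Figure D5:**
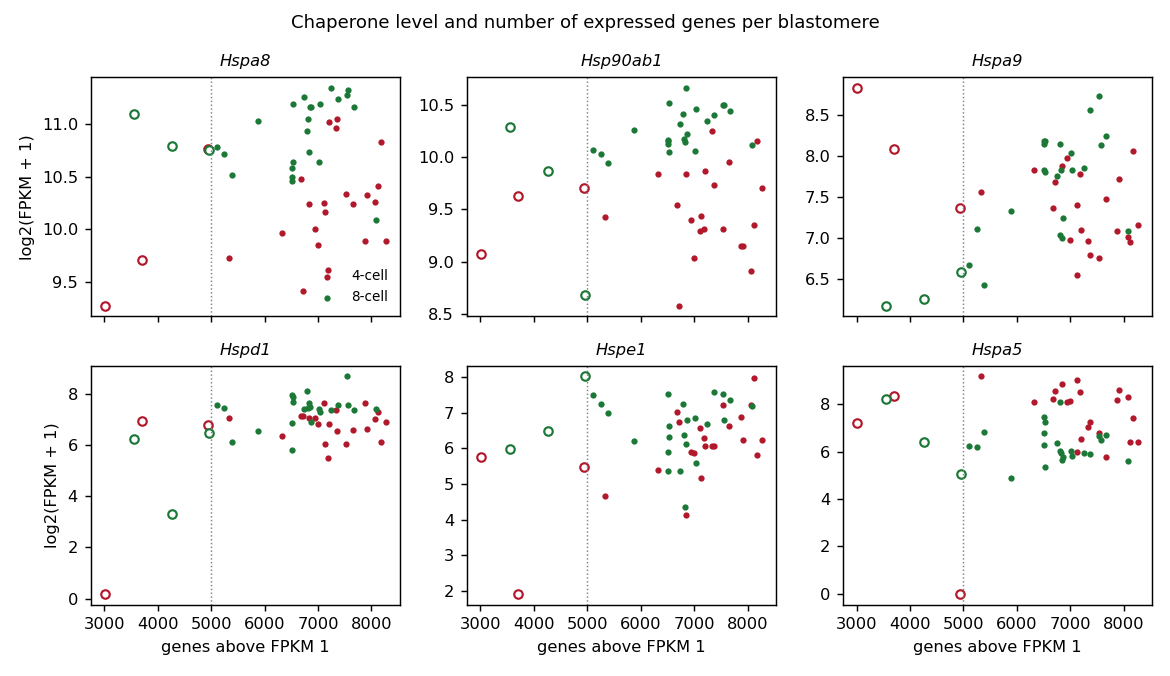
Level of 6 chaperones, as log2(FPKM + 1) on an axis of its own for each gene, against the number of genes above FPKM 1 in each 4-cell (red) and 8-cell (green) blastomere; open circles left of the dotted line at 5000 genes are the 3 gene-poor blastomeres of each stage. Hspa9 is high in 2 gene-poor 4-cell blastomeres and low in all 3 gene-poor 8-cell blastomeres. Hspd1 has 2 values far below the rest, at 0.134 and 8.83 FPKM, and Hspe1 and Hspa5 have 1 each.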

How the data were processed

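Single blastomeres were amplified with Smart-seq2 and sequenced as read pairs. The submitters' processing notes name STAR 2.5.1b, HTSeq and mm10. Per the study's methods, the authors kept uniquely aligned reads, counted them on Refseq genes and deposited FPKM values, 1 table per stage. The gene lengths and the total behind the FPKM are not given in the sources used here. The repeat tables were not used.

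Entrez identifiers were matched to RefSeq (GRCm38.p6). The FPKM denominator of each blastomere was estimated as the value that makes low values of single-transcript genes whole fragments; at least 90.3% of these were within 0.1 of a whole number, and in 10 of 10 simulated blastomeres per stage it was recovered to within 1%. Recurrence is the share of 100-base exon stretches found exactly elsewhere in the chromosomes. Ratios use 1 FPKM added to each median, for genes with a median above FPKM 1 in either group. No column could be given to a single sample, so no test was run. On simulated data for 4165 genes the ratio between stages passed 2-fold for 200 of 200 genes with a simulated log2 difference of 2 and for 5 unchanged genes. Those blastomeres were independent, with a log2 SD of 1, no values of 0 and only genes with a 4-cell median above 10 FPKM. Real blastomeres share embryos, hold values of 0 and had larger median SDs, of 1.57 and 1.46. The simulation therefore checks the calculation and not its error rate on these data. No 2 columns of a stage were identical (highest correlation 0.89).

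The 10 genes, the 9 lists and the rules were chosen with earlier results of these data known. Named are the 10 genes, per list the 3 most abundant genes and those past 2-fold between stages, and per gene the 2 with the most similar pattern; Dnajb1, Dnajb11, Dnajb12, Dnajc10, Canx, Manf and Hsp90b1 were added after their values were seen. Python 3.11.15 with pandas 2.3.3 and scipy 1.17.1 was used.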

Additional observations from a re-analysis of the deposited data

How the results depend on the processing

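No value past 2-fold changed its direction under the alternatives run; Hsf1 in gene-poor 4-cell blastomeres, at -0.70, ran from -1.20 to 1.57 as 1 of them was left out. Of 49 values of the main comparisons under other settings 41 stayed the same and 8 moved. A count or SD was called moved if it changed by more than 1.5-fold. With means in place of medians, 2 genes were past 2-fold between the stages, Hsf1 joining Hspa5 at -1.06. With 0.1 in place of 1 added, the log2 ratio of inducible over constitutive HSP70 went from -9.85 to -12.99 at the 4-cell and from -10.68 to -13.96 at the 8-cell stage, since the added value sets it where Hspa1a is at 0. The gene-poor counts rest on 3 libraries and moved most. At the 4-cell stage 1 gene, Hspa9, was past 2-fold under either scaling, 4 were with under 4000 genes as the limit (2 libraries) and 1, Hspe1, with under 6000 (4 libraries), beside 0. The 4 hold Hspa1a, which then passes the filter on low medians through 1 blastomere at 5.04 FPKM, so that 3 of the 8 genes compared before were past 2-fold. At the 8-cell stage 4 were with under 4000, which leaves 1 library and is a value of that library alone, beside 2. With under 6000 (7 libraries) the count there was 2, but with Hsf1 at -4.31 in place of Hspd1 at -0.97. Leaving out 1 gene-poor blastomere gave 3 to 4 genes at the 4-cell stage, or 2 to 3 of the 8 without Hspa1a, and 2 to 4 at the 8-cell stage. Leaving out 1 blastomere at a time, the count between stages stayed at 1, Hspa5 at -1.92 to -1.89 (-1.37 with means), and the median SD at 0.69 to 1.05 and 0.67 to 0.78. Among single genes 11 values moved, to the other side of 2-fold, and 173 stayed the same. The same here means on the same side of 2-fold, and allows other changes of size or sign. Hspa8 in gene-poor 4-cell blastomeres, called the same, went from -0.53 to 0.04 with each library scaled to one sum.

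No paired analysis was possible because the running numbers that name the columns match no label of a sample, and 5 columns share the name NA. The comparison of lineage A with lineage B and any test over embryos were not run for the same reason. The gene with the fewest fragments per unit of FPKM was Hspe1, and 1 FPKM of it stood for 1.80 fragments in the shallowest 8-cell library. The scaled alternatives shifted the median difference of all genes between stages from -0.11 to -0.07 and -0.05.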

Other observations

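The 24 4-cell values of Hspa5 left a gap between 169 and 273 FPKM. From the lowest they were 0, 54.3, 61.6, 82.5, 82.6, 92.0, 108, 129, 147, 151, 169, 273, 274, 277, 287, 299, 311, 327, 359, 374, 385, 457, 523 and 574 FPKM, with 11 below the gap and 13 above it. The 26 8-cell values were 28.7, 32.2, 39.6, 47.9, 48.7, 54.1, 55.5, 58.9, 60.7, 60.9, 63.9, 64.9, 71.4, 73.3, 75.6, 80.5, 82.5, 89.7, 99.7, 104, 110.2, 113, 152, 175, 270.0 and 297 FPKM, of which 2 lay above 200 FPKM. The level of 200 was chosen after the values were seen, and no group of embryos or lineages can be set beside it.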
